A study of Mus musculus with 30 samples.

Results

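The Toll-like receptor genes are a family of innate immune sensors, and 10 of them were followed here in the fracture callus of lean and obese mice. They were chosen by name (Tlr1, Tlr2, Tlr3, Tlr4, Tlr5, Tlr6, Tlr7, Tlr8, Tlr9 and Tlr13) from the 43629 genes of the deposited count table. The callus is the repair tissue that forms around a broken bone. All mice were male C57BL/6J mice of 20 weeks with an open osteotomy of the right tibia held by an intramedullary nail, and they were either lean or obese from a high-fat diet (DIO, diet-induced obesity). RNA of 1 callus per library was sequenced after fracture, in groups of 3 mice, from lean mice on d3, d5, d7 and d10 and from DIO mice on the same days as well as d14 and d21. The last 2 days are described for DIO mice alone, lean mice of that age of callus being not analysed here.

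Toll-like receptors recognise molecules of microbes and of damaged host cells and are found mainly on macrophages, neutrophils, dendritic cells and B cells. Tlr1, Tlr2, Tlr4, Tlr5 and Tlr6 act at the cell surface, where Tlr2 pairs with Tlr1 or Tlr6 to bind bacterial lipopeptides, Tlr4 binds lipopolysaccharide and Tlr5 binds flagellin. Tlr3, Tlr7, Tlr8, Tlr9 and Tlr13 act in endosomes and bind nucleic acids, and the chaperone Unc93b1 carries them there. Adaptors such as Myd88 and Ticam1 then pass the signal through kinases to NF-kB and interferon regulatory factors, which turn on cytokine genes.

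Tlr1 and Tlr6 lie next to each other on chromosome 5 (GRCm38, chr5:64924679-64933563 and chr5:64952031-64960097, both on the minus strand), with 18467 bases between them, and they share a long run of identical coding sequence. It is 229 bases long and lies in exon 4 of 4 of Tlr1 (chr5:64925537-64925765) and exon 2 of 2 of Tlr6 (chr5:64953828-64954056), and it is printed because reads that fall within it cannot be told apart by their letters.
Tlr1 and Tlr6 shared stretch: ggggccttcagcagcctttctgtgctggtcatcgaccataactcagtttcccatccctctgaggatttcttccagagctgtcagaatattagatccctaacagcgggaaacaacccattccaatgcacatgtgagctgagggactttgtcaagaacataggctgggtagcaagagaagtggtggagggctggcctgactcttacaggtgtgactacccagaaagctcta
Reads were 53 bases from each end of a fragment. Of the 2973 windows of that length in the Tlr1 transcript, 436 (14.7%) were also found in Tlr6, and these are 12.03% of the 3625 windows of Tlr6. The printed stretch is the longest one and does not hold all of these windows. The shares are for single reads, whereas each fragment was read from both ends. How far the counts of these 2 genes are uncertain was not measured, since how the authors counted reads with several matches is not stated. The other 8 members had 0 windows in the transcripts of any other gene.

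Tlr7 and Tlr8 are also neighbours, on the X chromosome (X:167304929-167330558 and X:167242696-167264329), with 40599 bases between them, and Tlr13 lies elsewhere on the X (X:106143204-106160493). Tlr2 is at chr3:83836272-83841767, Tlr3 at chr8:45395665-45411080, Tlr4 at chr4:66827584-66930284, Tlr5 at chr1:182954788-182976044 and Tlr9 at chr9:106222598-106226883. An antisense gene, Gm45542, covers 381 bases (7.32%) of the exons of Tlr3 and has no entry in the count table.

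Promoters of 8 of the 10 members were matched in the RefSeq table (build GRCm38.p6), as 300 bases from 250 before to 50 after the start of transcription. They were searched on both strands for the core of the site of PU.1, a myeloid transcription factor (GAGGAAG), for an NF-kB site (GGGNN followed by TTTCC) and for an interferon-stimulated element (TTTCNN followed by TTTC). The PU.1 letters were found in 3 of the 8 genes, against 15.4% of all 27025 genes with a promoter in that table. Those of Tlr1 (chr5:64933509-64933808, minus strand), Tlr9 (chr9:106222348-106222647, plus strand) and Tlr13 (X:106143025-106143324, plus strand), the 3 genes with a match, are printed with the PU.1 letters in capitals. Any link between these letters and the levels of the genes was not tested.
Tlr1 promoter: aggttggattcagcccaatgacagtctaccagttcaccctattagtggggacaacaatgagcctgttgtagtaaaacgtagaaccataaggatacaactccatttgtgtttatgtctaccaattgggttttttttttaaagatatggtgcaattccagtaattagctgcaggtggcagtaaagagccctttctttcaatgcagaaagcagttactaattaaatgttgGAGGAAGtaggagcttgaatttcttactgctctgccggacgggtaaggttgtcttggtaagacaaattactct
Tlr9 promoter: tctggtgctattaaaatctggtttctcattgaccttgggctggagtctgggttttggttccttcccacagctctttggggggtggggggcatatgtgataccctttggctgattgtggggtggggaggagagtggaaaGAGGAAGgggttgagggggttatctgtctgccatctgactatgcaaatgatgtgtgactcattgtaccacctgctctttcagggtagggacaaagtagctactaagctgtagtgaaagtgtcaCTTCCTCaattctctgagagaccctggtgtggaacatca
Tlr13 promoter: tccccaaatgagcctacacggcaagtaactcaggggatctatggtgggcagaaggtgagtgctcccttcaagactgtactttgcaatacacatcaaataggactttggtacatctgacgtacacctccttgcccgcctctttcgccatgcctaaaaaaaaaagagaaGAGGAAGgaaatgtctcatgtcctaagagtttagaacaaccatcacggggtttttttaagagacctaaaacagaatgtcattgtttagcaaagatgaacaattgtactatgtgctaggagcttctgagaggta
Tlr9 held the letters a second time, on the opposite strand. The NF-kB letters were found once, in Tlr3, against 1.90% of all genes, and the interferon element in 1 of 2 promoters of Tlr6, at 2 overlapping positions, against 3.99%. A match of letters is a description and not a bound site, and the second promoter of Tlr1 held none of the 3.

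Levels are given as CPM, counts per 1000000 reads after scaling with the TMM factors of edgeR, and differences as log2 fold changes with their standard error (SE) from edgeR's quasi-likelihood test. A gene was called where its p-value, adjusted over all genes tested by the Benjamini-Hochberg method, was under 0.05. Between 13247122 and 26365620 reads per library were counted on genes. The members other than Tlr9 had at least 3 counts in all 30 libraries and Tlr9 in 28, with 1 and 2 counts in the remaining libraries, both of lean d10. In these bulk samples, fewer cells of a type and less RNA per cell cannot be told apart.

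Lean d10 replicate 1 stood apart from the other libraries of its group. Its level of Ptprc, which encodes the pan-leukocyte protein CD45, was 18.3 CPM against 57.5 and 64.6, and that of Col2a1, the collagen of cartilage, was 46852 CPM against 8884 and 7121. Counts and tests of members and counts of lists that rest on lean d10 are therefore also given without it, a choice made after seeing the data for the lists, the group means and the tests over all days. Leukocyte and macrophage markers were present in every library, none of them at 0 throughout a group. Cartilage genes came up with time (summed chondrocyte markers 1275 CPM on lean d3 and 39990 on lean d10).

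Levels can be compared between genes only per length, and CPM per kb of exon is used for this. The length is that of all annotated exons of a gene joined, 5556 bases for Tlr4, 4304 for Tlr13 and 3014 for Tlr2. The longest protein-coding transcripts have 4077, 4060 and 3014 bases. The order of members with close levels, and their overlap, therefore depend on the length chosen, and other lengths were not tried. On lean d3, Tlr2 was highest at 13.8 CPM per kb, followed by Tlr13 at 11.9, Tlr1 at 6.08, Tlr7 at 3.73 and Tlr4 at 2.84, and none of these neighbours in the order overlapped between libraries. Tlr4, Tlr8 (1.97), Tlr6 (1.77), Tlr3 (1.35) and Tlr9 (1.30) each overlapped the next, and Tlr5 was lowest at 0.962 CPM per kb with no overlap with Tlr9. Over all 30 libraries the medians ran from 8.86 CPM per kb for Tlr2 and 7.11 for Tlr13 to 0.715 for Tlr5 and 0.522 for Tlr9. The first place in the order changed late in DIO callus. On DIO d14 Tlr13 was first at 7.68 CPM per kb and did not overlap Tlr2 at 6.70, and on DIO d21 Tlr13 was at 9.64 and Tlr2 at 7.77 with overlap. Tlr5 was the lowest member on both days, at 0.262 and 0.326 CPM per kb, below Tlr9 at 0.495 and 0.713 with no overlap. It had also been lowest on DIO d3, whereas Tlr9 was lowest on DIO d5, d7 and d10 and on lean d7 and d10.

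The members also differed in how far their levels ranged. The highest group mean was 12.9 times the lowest for Tlr9 (5.47 CPM on lean d5 and 0.425 on lean d10), 5.74 times for Tlr8 and 4.16 times for Tlr1. It was only 1.66 times for Tlr3, 1.68 times for Tlr4 and 1.68 times for Tlr6. Lean d10 was the lowest group for 8 of the 10 members. The exceptions were Tlr5, lowest on DIO d14, and Tlr8, lowest on DIO d10. This tally rests on the library that stood apart, since without it lean d10 was the lowest group for 4 members (Tlr3, Tlr6, Tlr7 and Tlr13), and the ratio was then 9.72 for Tlr9 and 3.67 for Tlr1.

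**Figure D1:**
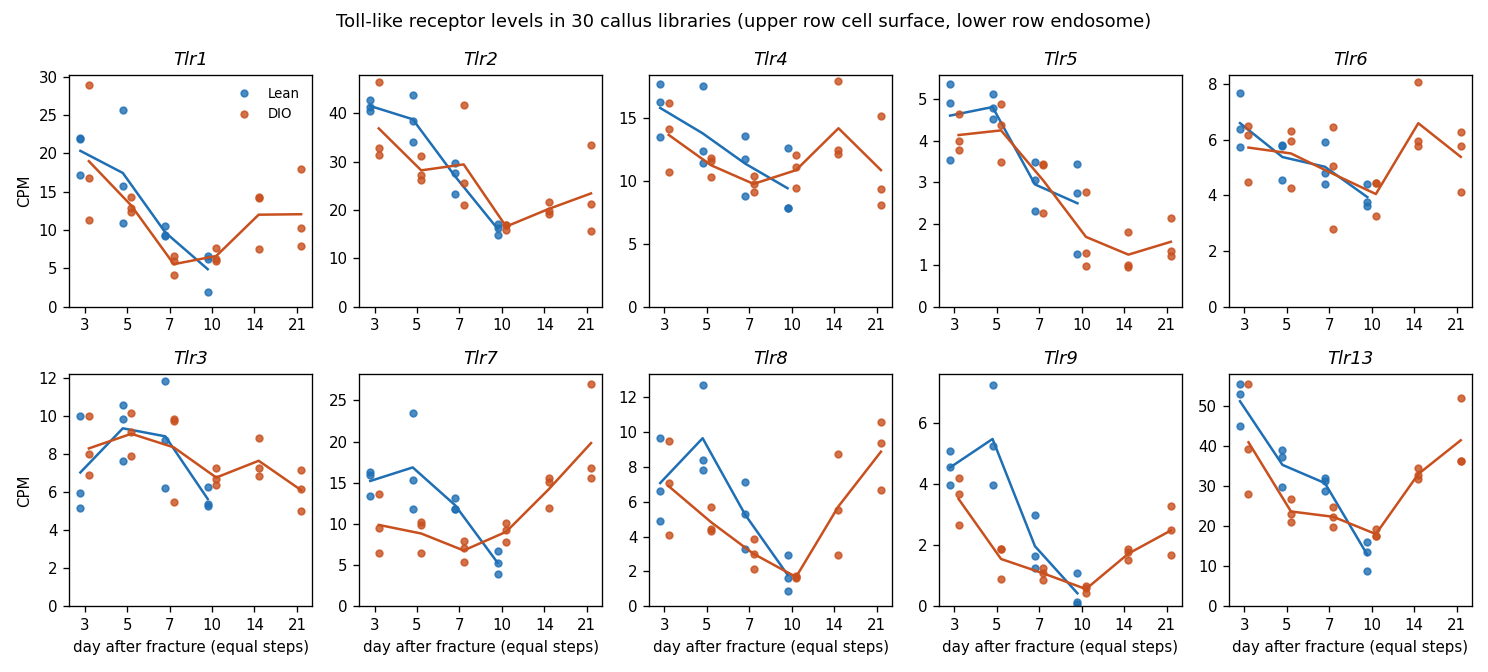
CPM of each member (y axis) by day after fracture (x axis, days in equal steps), with 1 point per callus, lean in blue and DIO in orange, and lines through the group means. The upper row holds the cell-surface members and the lower row the endosomal members. In lean calli, Tlr13 falls from a mean of 51.2 to 12.9 CPM between d3 and d10, and no lean points follow d10. In DIO calli, Tlr13 has a mean of 41.5 CPM on d21 and Tlr5 one of 1.56 CPM.

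The first question was how receptor transcripts moved from the inflammatory phase to the cartilage phase in lean mice. Between d3 and d10, 8 of the 10 members fell and 0 rose, where 29.3% of all 16471 genes tested were called in either direction. All 10 log2 fold changes were negative, with a median of -1.43 against 0.02 for all genes. DESeq2, run as an alternative, called 9 members among 5388 genes. The summed level of the surface members went from 25.4 ± 1.0 to 10.1 ± 1.5 CPM per kb (SD, n = 3) and that of the endosomal members from 20.3 ± 1.5 to 5.99 ± 1.5.

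Tlr2, the shared partner of the lipopeptide receptors, was at 40.5, 41.3 and 42.7 CPM on lean d3 and at 14.8, 16.2 and 17.2 CPM on lean d10. All d10 libraries lay far below all d3 libraries. The log2 fold change was -1.35 ± 0.14 (adjusted p = 0.000146), and -1.29 (adjusted p = 0.000405) without lean d10 replicate 1. Tlr1, its partner for triacylated lipopeptides, was at 17.1, 21.8 and 22.04 CPM on d3 and at 1.88, 6.20 and 6.58 CPM on d10, a log2 fold change of -2.04 ± 0.41 (adjusted p = 0.00411). The lowest value was that of the library that stood apart, and without it the change was -1.64 (adjusted p = 0.00455).

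Tlr6, the other partner of Tlr2, moved less. Its libraries held 5.73, 7.70 and 6.38 CPM on d3 and 3.76, 3.64 and 4.43 CPM on d10, with a log2 fold change of -0.72 (adjusted p = 0.029). Tlr4 was at 17.6, 16.2 and 13.5 CPM on d3 and at 7.83, 7.81 and 12.6 CPM on d10, a log2 fold change of -0.73 ± 0.25 that was just past the threshold (adjusted p = 0.0493). Neither call held without lean d10 replicate 1, where Tlr6 was at -0.69 (adjusted p = 0.0696) and Tlr4 at -0.61 (adjusted p = 0.138). The call of Tlr4 was lost when any library of the 2 days but d10 replicate 3 was left out, and that of Tlr6 when any but d3 replicate 1 and d10 replicate 3 was. Tlr5 did the reverse. It was not called with all libraries (-0.86 ± 0.34, adjusted p = 0.0715) and was called without that library (-1.16, adjusted p = 0.036), so that 7 members were called then.

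Of the endosomal members, Tlr13, a receptor of bacterial ribosomal RNA that humans lack, was at 53.01, 55.6 and 45.2 CPM on lean d3 and at 8.77, 16.2 and 13.6 CPM on lean d10. The groups were far apart, with a log2 fold change of -1.97 ± 0.21 (adjusted p = 0.000133), and -1.76 (adjusted p = 0.000113) without lean d10 replicate 1. Tlr9, the receptor of unmethylated CpG DNA, was at 3.97, 4.56 and 5.09 CPM on d3 and at 0.0626, 0.135 and 1.08 CPM on d10, the lowest of which rests on a single count. Its log2 fold change was -3.35 ± 0.68 (adjusted p = 0.00421), and it was -2.84 (adjusted p = 0.00889) without lean d10 replicate 1.

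Tlr7 and Tlr8, receptors of single-stranded RNA, fell together. Tlr7 was at 13.4, 15.9 and 16.3 CPM on lean d3 and at 3.95, 6.67 and 5.20 CPM on lean d10 (log2 fold change -1.51 ± 0.27, adjusted p = 0.00224). Tlr8 was at 4.91, 9.68 and 6.63 CPM on d3 and at 0.877, 1.62 and 2.93 CPM on d10 (log2 fold change -1.94 ± 0.44, adjusted p = 0.00744). Without lean d10 replicate 1 these changes were -1.33 (adjusted p = 0.00713) for Tlr7 and -1.61 (adjusted p = 0.0203) for Tlr8. Tlr3, the receptor of double-stranded RNA, was the member with the least movement, at 5.14, 5.93 and 10.0 CPM on d3 and 5.39, 6.26 and 5.26 CPM on d10, with overlapping groups and a log2 fold change of -0.30 ± 0.30 (adjusted p = 0.474; -0.26 without lean d10 replicate 1).

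The steps between lean days were smaller. From d3 to d5 no member was called by edgeR, against 0.449% of all genes. An unadjusted p under 0.05 was found for 1 member and for 2430 of 16471 genes, and DESeq2 called 0 members and 569 genes. From d5 to d7 edgeR called 0 members and 0% of all genes, with 2 members and 926 genes at an unadjusted p under 0.05. DESeq2 called 0 members and 36 genes. Even so, all 10 log2 fold changes were negative, with a median of -0.49. By DESeq2, 5 members and 1757 genes were called from d7 to d10. By edgeR 3 members fell, against 2.73% of all genes called. These were Tlr2 at -0.74 ± 0.14 (adjusted p = 0.0296), Tlr7 at -1.21 ± 0.27 (adjusted p = 0.0416) and Tlr13 at -1.25 ± 0.20 (adjusted p = 0.0201). Without lean d10 replicate 1 only Tlr13 was called (-1.03, adjusted p = 0.0252), with Tlr2 at -0.67 (adjusted p = 0.077) and Tlr7 at -1.03 (adjusted p = 0.112), and without any 1 of the lean d7 libraries the count was 0. Tested over all lean days at once, 6 members were called (Tlr1, Tlr2, Tlr7, Tlr8, Tlr9 and Tlr13), against 19% of all genes, and the count was also 6 without lean d10 replicate 1.

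General leukocyte genes moved with the members in this comparison. Of 15 such genes, led by Ptprc and Cd53, 11 fell between lean d3 and d10 (median log2 fold change -1.47), and their summed level went from 3582 to 1723 CPM (1257 to 2120 in the d10 libraries). Of 11 macrophage markers tested, 7 fell and 2 rose with a median of -0.72, and of 12 neutrophil markers 7 fell and 1 rose with a median of -2.26. Without lean d10 replicate 1, 11 leukocyte genes fell (median -1.26), 5 macrophage markers fell and 2 rose (median -0.70), and 6 neutrophil markers fell and 1 rose (median -1.72). The part that these cells had in the fall of the members was not tested. The question whether a member moved by a different amount was asked by taking its log2 CPM minus the mean log2 CPM of the 15 leukocyte genes in each library.

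On that scale 3 members were lower on lean d10 than on d3 with no overlap between the groups, against 2.44% of 14808 genes. These were Tlr9 with a difference of -2.27, Tlr1 with -0.85 and Tlr13 with -0.67, each at an exact two-sided permutation p of 0.1, the smallest that 3 against 3 libraries allow. The leukocyte mean itself changed by -1.36, so a gene with a steady level goes up on this scale. That lowers the share over all genes, and the count of members is not read against it. The count was also 3 without lean d10 replicate 1, with differences of -2.03 for Tlr9, -0.59 for Tlr1 and -0.72 for Tlr13. Tlr2 differed by -0.01 (exact permutation p = 1) and Tlr7 by -0.18 (exact permutation p = 0.6), and both overlapped. Tlr3 differed by 1.10 (exact permutation p = 0.2), Tlr4 by 0.59, Tlr5 by 0.42 and Tlr6 by 0.63, all with overlap. With Ptprc alone as the reference, Tlr13 differed by 0.029, so its place in this group depends on the leukocyte genes used.

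The same change over d3 to d10 was measured in DIO mice. There 6 members fell and 0 rose, where 21.8% of 16995 genes were called, and all 10 log2 fold changes were again negative, with a median of -1.16 against 0.02 for all genes. DESeq2 called 6. The summed level of the surface members went from 22.7 ± 6.0 to 10.9 ± 0.3 CPM per kb and that of the endosomal members from 16.5 ± 5.4 to 8.34 ± 0.46 (SD, n = 3). The SD of the d3 libraries was larger in DIO than in lean mice for every member but Tlr3 and Tlr5. For these it was 1.59 against 2.62 CPM and 0.448 against 0.951 CPM, and for Tlr6 and Tlr8 the diets differed little. On DIO d3 replicate 1 was the highest library for every member but Tlr5 and Tlr6.

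Tlr9 was at 4.20, 3.69 and 2.64 CPM on DIO d3 and at 0.613, 0.652 and 0.424 CPM on DIO d10, a log2 fold change of -2.62 ± 0.40 (adjusted p = 0.000233) with the groups well apart. Tlr13 was at 55.6, 39.3 and 28.1 CPM on d3 and at 19.2, 17.5 and 17.4 CPM on d10 (log2 fold change -1.18 ± 0.21, adjusted p = 0.000799). Tlr8 was at 9.48, 7.08 and 4.12 CPM on d3 and at 1.69, 1.59 and 1.76 CPM on d10 (log2 fold change -2.03 ± 0.39, adjusted p = 0.00163). In each of these 3 endosomal genes the d10 libraries were close together and below every d3 library.

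Of the surface members, Tlr2 was at 46.4, 32.8 and 31.4 CPM on DIO d3 and at 16.9, 15.9 and 16.9 CPM on DIO d10 (log2 fold change -1.15 ± 0.26, adjusted p = 0.00483). Tlr1 was at 28.9, 16.7 and 11.3 CPM on d3 and at 7.58, 6.01 and 6.21 CPM on d10 (log2 fold change -1.52 ± 0.35, adjusted p = 0.00591). Tlr5, the flagellin receptor, was at 3.78, 4.64 and 3.99 CPM on d3 and at 1.30, 2.75 and 0.988 CPM on d10 (log2 fold change -1.29 ± 0.38, adjusted p = 0.0222). All 3 had groups without overlap. How many of all genes had none between DIO d3 and d10 was not counted, so nothing is read from the number of such members. Tlr3 at -0.29 (adjusted p = 0.423), Tlr4 at -0.33 (adjusted p = 0.349) and Tlr6 at -0.49 (adjusted p = 0.256) were not called.

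Tlr7 was called in lean but not in DIO callus. It was at 13.7, 9.44 and 6.51 CPM on DIO d3 and at 9.27, 7.75 and 10.1 CPM on DIO d10, with overlapping groups and a log2 fold change of -0.12 ± 0.28 (95% interval -0.71 to 0.47, adjusted p = 0.792). The difference between the diets in this change was itself not called (adjusted p = 0.112), as given below. Of 15 general leukocyte genes 2 were lower and 1 was higher on DIO d10 (median log2 fold change -0.35), and macrophage markers had 4 lower and 1 higher of 11 with a median of -0.67. T and NK cell markers rose in 10 of 10 cases and B cell markers in 6 of 8. Their part in the levels of the members was not tested.

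**Figure D2:**
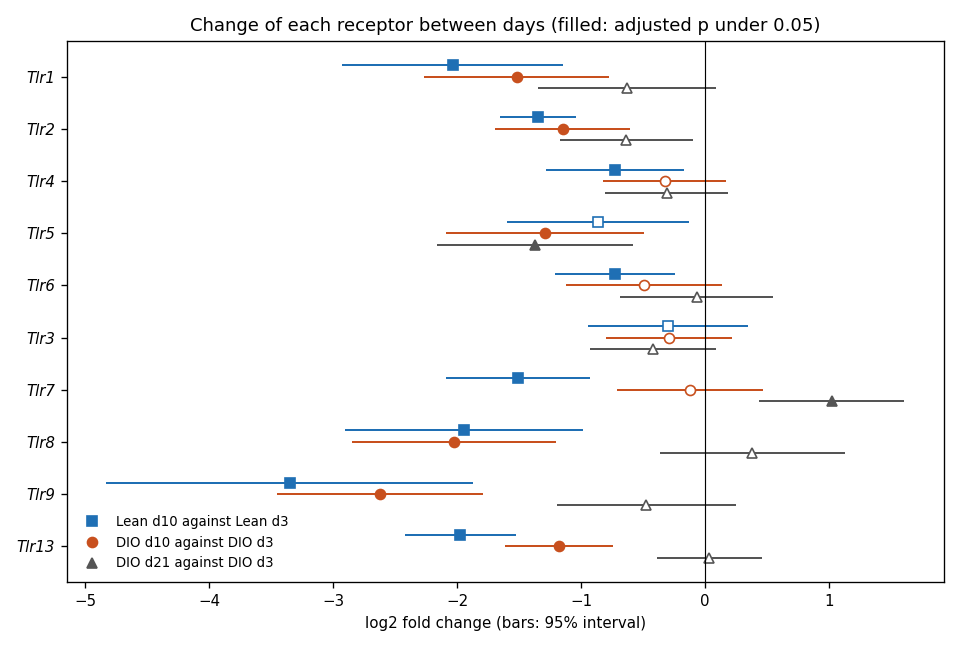
Log2 fold change of each member (x axis) with its 95% interval between lean d10 and d3 (squares), DIO d10 and d3 (circles) and DIO d21 and d3 (triangles), where filled symbols have an adjusted p under 0.05. The 2 DIO comparisons share the d3 libraries. Tlr9 has the most negative values in both d10 comparisons, -3.35 and -2.62, and Tlr7 is the only member with a filled symbol to the right of 0, at 1.02.

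Between neighbouring DIO days few members were called. From d3 to d5 edgeR called 0, against 1.68% of all genes. An unadjusted p under 0.05 was found for 2 members and for 2333 of 16995 genes, and DESeq2 called 1 member among 580 genes. Tlr13 was nearest, at -0.79 (adjusted p = 0.058). From d5 to d7 edgeR called 0, against 0.0177% of all genes. An unadjusted p under 0.05 was found for 1 member and for 2411 of 16995 genes, and DESeq2 called 1 member among 339 genes.

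From d7 to d10, where 13% of all genes were called, Tlr2 fell by 0.84 on the log2 scale (SE 0.26, adjusted p = 0.0395). Its d7 libraries held 41.7, 25.6 and 20.9 CPM. The highest of these, DIO d7 replicate 1, also held 62.3 CPM of the neutrophil-attracting chemokine Cxcl2 against 1.39 and 0.534 in the other two, and 84.9 CPM of Cd14, a co-receptor of Tlr4, against 19.3 and 8.62. Without that library the change of Tlr2 was -0.50 (adjusted p = 0.23), and the call was lost when any other library of the 2 days except d7 replicate 3 was left out.

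From d10 to d14 the direction turned, with 9 of 10 log2 fold changes above 0 and a median of 0.68. Of these, 1 was called by edgeR and 3 by DESeq2, against 0.759% of all genes by edgeR and 563 genes by DESeq2. Tlr8 rose from 1.69, 1.59 and 1.76 CPM to 8.73, 5.54 and 2.94 CPM (log2 fold change 1.77 ± 0.39, adjusted p = 0.0453). All d14 libraries were above all d10 libraries, but d14 replicate 1 was highest, and without it the change was 1.30 (adjusted p = 0.241). Leaving out any 1 of 5 of the 6 libraries ended this call. Tlr13 at 0.88 (adjusted p = 0.054) and Tlr9 at 1.61 (adjusted p = 0.066) came next, and 15 of 15 leukocyte genes had values above 0, with a median of 0.58. From d14 to d21 edgeR and DESeq2 both called 0 members, with 0 at an unadjusted p under 0.05, while 19.6% of all genes were called by edgeR. Over all 16995 genes tested by edgeR, 5861 had an unadjusted p under 0.05, and DESeq2 called 3897 genes.

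On d21 the members of DIO callus differed from d3 in both directions, with 3 log2 fold changes above 0 and 7 below. Against d3, 1 member rose and 1 fell, where 45.3% of all genes were called, and the median log2 fold change was -0.36 against 0.03 for all genes. DESeq2 called 2. Tlr7 rose from 13.7, 9.44 and 6.51 CPM to 26.99, 16.8 and 15.6 CPM, a log2 fold change of 1.02 ± 0.28 (95% interval 0.44 to 1.61, adjusted p = 0.00629). Every d21 library was above every d3 library, but replicate 1 of d21 stood highest, and without it the change was 0.72 (adjusted p = 0.0578). Tlr5 fell from 3.78, 4.64 and 3.99 CPM to 1.21, 1.34 and 2.14 CPM, with no overlap (log2 fold change -1.37 ± 0.38, adjusted p = 0.0066).

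The other endosomal members were not called against d3. Tlr13 was at 52.0, 36.2 and 36.3 CPM on DIO d21, with a log2 fold change against d3 of 0.04 ± 0.20 (95% interval -0.39 to 0.46, adjusted p = 0.901). Tlr8 was at 10.6, 6.68 and 9.39 CPM (0.38 on the log2 scale, adjusted p = 0.4), and Tlr9 at 1.67, 2.50 and 3.27 CPM (-0.48, adjusted p = 0.274), while Tlr3 had a log2 fold change of -0.42 (adjusted p = 0.167). Of the surface members, Tlr2 was at 33.4, 15.6 and 21.2 CPM on d21 (-0.64, adjusted p = 0.0504), and its highest library, replicate 1, also held the most Cxcl2, 17.9 CPM against 1.22 and 0.510. Without that library Tlr2 was called, at -0.999 (adjusted p = 0.00554). Tlr1 at -0.63 (adjusted p = 0.144), Tlr4 at -0.31 (adjusted p = 0.306) and Tlr6 at -0.066 (adjusted p = 0.873) were not called. The summed level of the endosomal members was 18.9 ± 3.9 CPM per kb on d21 and that of the surface members 15.1 ± 4.1 (SD, n = 3), where the surface sum had been the higher one on d3. Over all DIO days at once, 7 members were called (Tlr1, Tlr2, Tlr5, Tlr7, Tlr8, Tlr9 and Tlr13), against 59.1% of all genes.

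Leukocyte genes rose between DIO d3 and d21. Of the 15, 13 rose (median log2 fold change 0.83), and Ptprc reached 269, 155 and 264 CPM. B cell markers rose in 8 of 8 cases with a median of 5.44, neutrophil markers in 10 of 12 with a median of 2.62, and T and NK cell markers in 10 of 10, whereas 1 macrophage marker rose and 3 fell with a median of -0.27. Relative to the leukocyte genes, 9 members were lower on d21 without overlap, from -0.55 for Tlr8 to -2.34 for Tlr5, but so were 67.0% of 14808 genes, and nothing is read from the count. Tlr7 was the exception among the members, with a difference of 0.05 and overlapping groups. With macrophage markers in place of leukocyte genes the count was 3, and Tlr13 (0.27), Tlr8 (0.63) and Tlr6 (0.13) had values above 0.

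**Figure D3:**
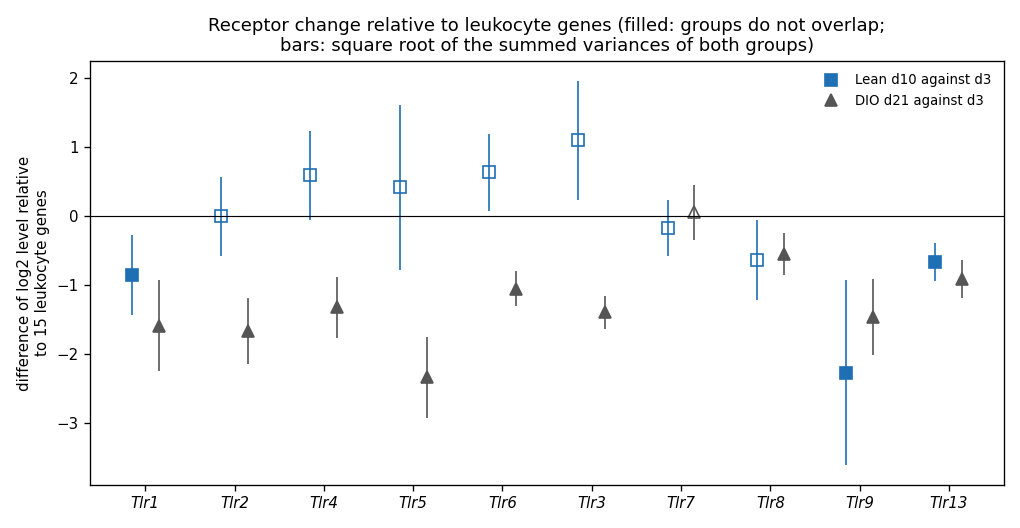
Difference between days in the log2 level of each member relative to the mean of 15 leukocyte genes (y axis), for lean d10 against d3 (squares) and DIO d21 against d3 (triangles), with 3 libraries a group. Bars are the square root of the summed variances of both groups, and filled symbols mark groups that do not overlap. Tlr1, Tlr9 and Tlr13 have filled squares at -0.85, -2.27 and -0.67, and Tlr7 is the only member with an open triangle, at 0.05.

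The second question was whether obesity changed receptor transcripts on the same day. On d3, d5, d7 and d10 edgeR called 0 members, against 0%, 1.08%, 2.32% and 0% of all genes. The members with an unadjusted p under 0.05 numbered 1, 5, 3 and 1 on these days, and DESeq2 called 0, 4, 0 and 0. Over all genes, the unadjusted p was under 0.05 for 2374 of 15772, 2913 of 15722, 2614 of 15753 and 1082 of 15341. DESeq2 called 743, 1107, 934 and 56 genes on these days. On d10 Tlr9 did not pass the filter on low counts and 9 members were tested. Of the 10 log2 fold changes (DIO minus lean), 9 were negative on d3, 9 on d5 and 8 on d7, with medians of -0.20, -0.43 and -0.33, and on d10 the median was 0.21. The count on d10 was also 0 without lean d10 replicate 1.

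On d5 the endosomal members other than Tlr3 (-0.047) had the largest differences among the members. Tlr9 was at 7.22, 5.23 and 3.96 CPM in lean and at 0.903, 1.86 and 1.88 CPM in DIO calli, with no overlap and a log2 fold change of -1.83 ± 0.38 (95% interval -2.70 to -0.96, adjusted p = 0.068). Tlr8 was at 12.7, 8.40 and 7.82 CPM in lean and at 4.34, 5.70 and 4.43 CPM in DIO calli (-0.9997, adjusted p = 0.099). Tlr7 was at 23.5, 15.3 and 11.8 CPM in lean and at 6.46, 10.2 and 9.84 CPM in DIO calli (-0.93, adjusted p = 0.146), and Tlr13 at 39.0, 37.3 and 29.8 CPM against 23.1, 21.2 and 26.8 CPM (-0.58, adjusted p = 0.105).

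In all of these 4 genes every DIO library was below every lean library, and they were the 4 members that DESeq2 called, among 1107 genes. The libraries of Tlr2 did not overlap either, at 43.8, 38.3 and 34.1 CPM in lean and 31.1, 26.2 and 27.2 CPM in DIO calli. How many of all genes had no overlap on d5 was not counted. By edgeR they missed the threshold, which does not show that the diets were alike. Without lean d5 replicate 3, edgeR called 4 members. Leukocyte genes were lower in DIO calli on the same day in 15 of 15 cases (median log2 fold change -1.01, 5 called), and B cell markers in 7 of 7 (median -2.50, 0 called by edgeR). Their part in these differences was not tested.

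Tlr7 was among the members whose diet difference had opposite signs on d7 and d10. On d7 it was at 11.8, 11.8 and 13.1 CPM in lean and at 5.33, 7.91 and 7.08 CPM in DIO calli, a log2 fold change of -0.85 ± 0.24 (95% interval -1.38 to -0.31, adjusted p = 0.11). On d10 it was at 3.95, 6.67 and 5.20 CPM in lean and at 9.27, 7.75 and 10.1 CPM in DIO calli, 0.79 ± 0.29 on the log2 scale (95% interval 0.13 to 1.45, adjusted p = 0.686; 0.60 without lean d10 replicate 1). The libraries of the diets did not overlap on either day, with DIO below lean on d7 and above it on d10.

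This change was tested directly, as the diet difference on d10 minus that on d7 with the 24 libraries up to d10 fitted together. By DESeq2, 2 members were called among 1472 genes. By edgeR only Tlr7 was called among the members, where 5.07% of 17057 genes were called. Its value was 1.63 ± 0.40 on the log2 scale (95% interval 0.81 to 2.46, adjusted p = 0.0215). The call was lost without lean d10 replicate 1 (1.47, adjusted p = 0.0782), DIO d7 replicate 1 (1.49, adjusted p = 0.0511) or DIO d10 replicate 1 (1.61, adjusted p = 0.0529). Tlr13 had 0.95 (adjusted p = 0.0676) and Tlr1 1.24 (adjusted p = 0.167), and the median of the members was 0.56.

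The same contrast was above 0 for 15 of 15 leukocyte genes (median 1.09, 2 called) and for 11 of 11 macrophage markers (median 1.00, 3 called; without lean d10 replicate 1, medians of 0.89 and 0.86 with 1 and 0 called by edgeR), and their part in the value of Tlr7 was not tested. From d3 to d10 the change of the diet difference gave 0 called members by edgeR, against 0.00586% of all genes. An unadjusted p under 0.05 was found for 2 members and for 3114 of 17057 genes, and DESeq2 called 1 member among 453 genes. Tlr7 was at 1.41 ± 0.39 (adjusted p = 0.112, and 1.24 without lean d10 replicate 1, where edgeR again called 0). In a time course over d3 to d10, with a polynomial of degree 2 in the day and the 3 diet terms tested together, Tlr7 (adjusted p = 0.00913) and Tlr13 (adjusted p = 0.0487) were called, where 8.13% of all genes were. Tlr9 had an adjusted p of 0.067 and Tlr8 of 0.132. Of the 15 leukocyte genes 12 were called in this test. Without lean d10 replicate 1 it called 3 members and 14 leukocyte genes.

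**Figure D4:**
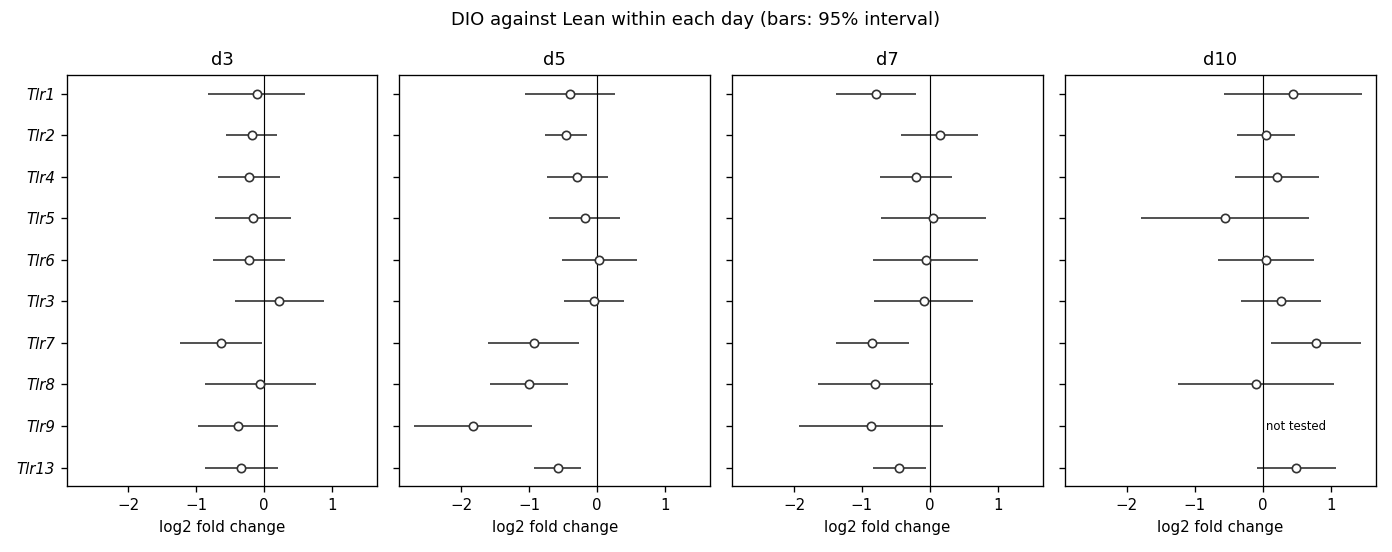
Log2 fold change between DIO and lean calli (x axis) of each member within d3, d5, d7 and d10, with 95% intervals from 6 libraries a day. Open symbols mark an adjusted p of 0.05 or more, which holds for all values. Tlr7 lies at -0.85 on d7 and at 0.79 on d10, and Tlr9, at -1.83 on d5, was not tested on d10.

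The genes that serve the receptors were read from lists of the pathway. Of all 16471 genes tested, 29.3% were called between lean d3 and d10, 2508 higher and 2317 lower. The list counts were not tested against that share. In this comparison 10 of 14 target cytokines and inflammatory enzymes tested fell and 0 rose, with a median log2 fold change of -2.28. They included the chemokines Cxcl2 at -4.20 (adjusted p = 0.000258) and Ccl2 at -2.82 (adjusted p = 0.000261), and Acod1, which makes itaconate, at -4.31 (adjusted p = 0.000599). Of 6 adaptors 4 fell and 1 rose, with Ticam2, the adaptor that links Tlr4 to Ticam1, at -1.85 (adjusted p = 0.00279) and Tirap, which bridges Myd88 to surface receptors, at -0.94 (adjusted p = 0.0048).

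Of 10 co-receptors and chaperones 4 fell and 1 rose, with a median of -0.68. Unc93b1, the carrier of the endosomal members, went from 218 ± 23.8 to 112 ± 29.8 CPM (SD, n = 3; log2 fold change -0.94, adjusted p = 0.00811), and Cd180, a relative of Tlr4 on B cells and macrophages, changed by -1.46 (adjusted p = 0.00229). Of 12 transcription factors 6 fell and 1 rose, with Irf5, which acts downstream of Myd88, at -1.63 (adjusted p = 0.000176) and Irf8 at -1.39 (adjusted p = 0.00562). Of 16 kinases and ubiquitin ligases 6 fell and 1 rose, with a median of -0.39.

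Among 12 negative regulators 3 fell and 2 rose. Zfp36, which destabilises cytokine mRNA, changed by -1.27 (adjusted p = 0.000227) and Irak3, a kinase-dead inhibitor of Myd88 signalling, by -1.45 (adjusted p = 0.000609). Of 10 endosomal proteases and lysosomal nucleases 3 fell and 1 rose. The one that rose was Ctsk, cathepsin K, at 3.67 (adjusted p = 4.42e-06), which is also on the osteoclast list, while the immune cathepsin Ctss changed by -1.78 (adjusted p = 0.000558). Of 10 endogenous ligands tested 4 rose and 3 fell, the matrix genes Fn1 (2.15) and Bgn (1.40) being among those that rose and the acute-phase gene Saa3 (-4.37, adjusted p = 0.000418) among those that fell. Without lean d10 replicate 1, 9 cytokines, 3 adaptors, 5 co-receptors, 7 transcription factors, 4 kinases or ligases, 3 negative regulators, 2 proteases or nucleases and 3 ligands fell in the same comparison.

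In DIO callus from d3 to d10, where 21.8% of 16995 genes were called, 5 of 14 cytokines fell and 1 rose, with a median of -1.41. Cxcl1 and Ccl2 changed by -4.07 and -3.14, whereas Ccl5, a chemokine made largely by T cells, rose by 2.64 (adjusted p = 4.87e-05). Adaptors had 0 of 6 called by edgeR and co-receptors 1 of 10, Cnpy3, a folding factor of Toll-like receptors, at -0.47 (adjusted p = 0.0246). Transcription factors had 5 lower and 1 higher of 12, led by Jun at -1.27 and Fos at -1.63. The lean and DIO counts come from separate fits, and the difference between them was not tested.

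From DIO d3 to d21, 45.3% of all 16995 genes were called, 3989 higher and 3709 lower, and the list counts were not tested against that share. Of 16 kinases and ubiquitin ligases 8 rose and 1 fell, with a median of 0.40, led by Tab3 at 2.61 (adjusted p = 5.88e-06). Of 12 negative regulators 6 rose and 2 fell (median 0.53), with Sigirr, a decoy receptor of the family, at 1.29 and Socs1, an inhibitor of cytokine signalling, at -2.52. Of 6 adaptors 2 fell, Myd88 at -0.56 and Ticam1 at -0.81. Of 14 cytokines 6 fell and 2 rose, with Cxcl1 at -4.78 and Ccl5 at 3.22. Ly86, which pairs with Cd180, was higher by 0.99 (adjusted p = 0.00778).

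**Figure D5:**
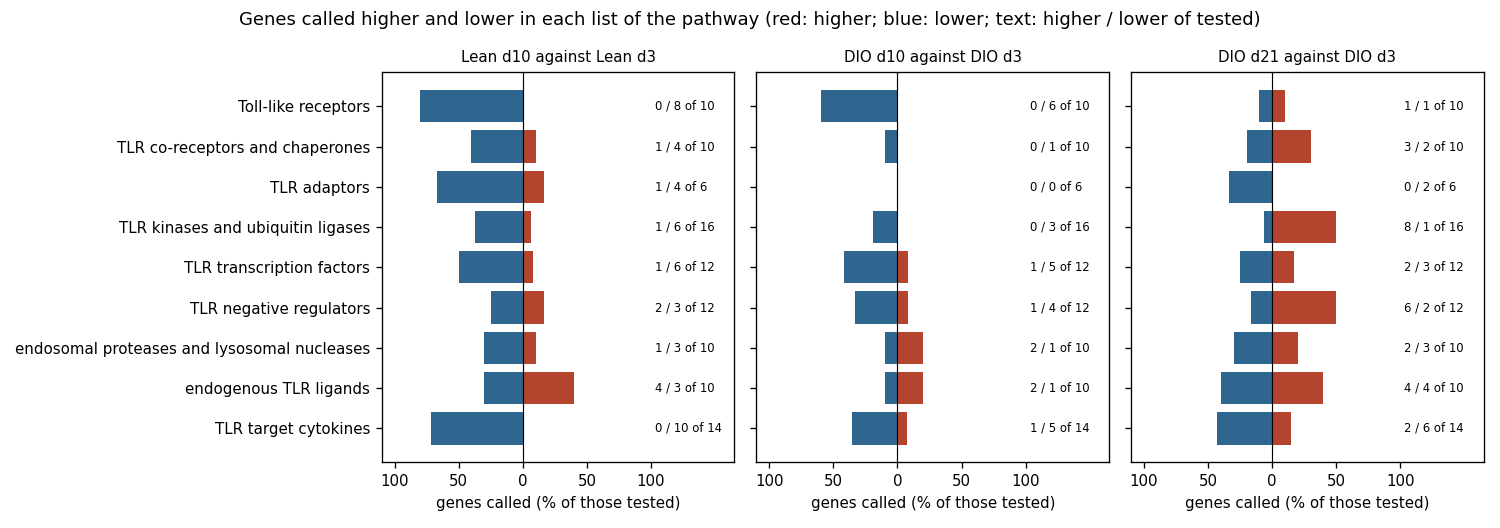
Share of the tested genes of each list (x axis, percent) called higher (red, to the right) and lower (blue, to the left) in 3 comparisons between days, with the counts beside the bars. The receptors are called lower in 8 of 10 cases in lean and 6 of 10 in DIO callus between d3 and d10, and the cytokines in 10 and 5 of 14. Over all genes, 29.3% were called in lean and 21.8% in DIO callus between d3 and d10, and 45.3% between DIO d3 and d21.

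Between the diets on d5, where 1.08% of all genes were called, 4 of 12 transcription factors were called, all lower in DIO callus. Irf7, the factor downstream of Tlr7 and Tlr9 for type I interferon, was at 104 ± 24.6 CPM in lean and 29.5 ± 12 CPM in DIO callus (SD, n = 3; log2 fold change -1.82, adjusted p = 0.0458). Irf8 changed by -1.13 and Irf1 by -0.67 (adjusted p = 0.0432 for each), Unc93b1 by -0.87 (adjusted p = 0.0498) and Ccl5 by -1.77 (adjusted p = 0.0384). On the same day the summed leukocyte genes were at 2614 CPM in lean and 1271 CPM in DIO callus. The macrophage markers were at 5332 and 2979 CPM. The plasmacytoid dendritic cell markers were at 238 and 141 CPM (0 of the 5 tested called by edgeR). This last sum was highest on DIO d10 (296 CPM), as was that of skeletal muscle markers (21769 CPM), so it is not read as a measure of these cells. The part of any cell type in these differences of pathway genes was not tested.

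On d7, Ly86 was lower in DIO callus by -1.19 on the log2 scale (adjusted p = 0.0203) and Cd180 by -1.06 (adjusted p = 0.0371), while Ptgs2, which makes prostaglandins, was higher by 2.02 (adjusted p = 0.0327). The change of the diet difference from d7 to d10 was called for Ly86 (1.86, adjusted p = 0.0277), Irf1 (1.31, adjusted p = 0.00827) and Irf5 (1.46, adjusted p = 0.0398) with the sign of Tlr7, and for Ptgs2 (-3.33, adjusted p = 0.0116) with the opposite sign. Without lean d10 replicate 1, edgeR called 0 co-receptors, 1 transcription factor and 0 cytokines in this contrast. In the time course, where 8.13% of all genes were called, 6 of 10 co-receptors and chaperones were called. Among them were Ly86 (adjusted p = 0.00913), Lbp (adjusted p = 0.0127) and Unc93b1 (adjusted p = 0.0225). Tlr11 and Tlr12, the remaining Toll-like receptor genes of the mouse in the lists, were called by edgeR in 0 of these comparisons, and Tlr11 was at 0.313 ± 0.0779 CPM on lean d3.

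As a description over all 30 libraries, which share days, diets and cell makeup, the pairwise Pearson correlations of log2 CPM among the 45 pairs of members ran from -0.08 (Tlr5 with Tlr7) to 0.87 (Tlr8 with Tlr9), with a median of 0.58. The genes most like each member were searched among 14725 genes with a mean of at least 1 CPM. Tlr7 was most like Ly86 (r = 0.927), followed by Epsti1 (0.924) and March1 (0.916). Tlr13 was most like Tpd52 (0.935) and Tlr2 most like Ctla2b (0.913), followed by the granulocyte gene Mefv (0.904) and the lectin Clec4d (0.903).

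Tlr1, Tlr8 and Tlr9 had Adcy7, an adenylate cyclase, among their 3 most like genes (r = 0.914, 0.902 and 0.904). Tlr3 was most like Gulp1 (0.774), Tlr4 like Gnpda1 (0.789), Tlr5 like Ptprn (0.879) and Tlr6 like Zfp715 (0.764), so that Tlr3, Tlr4 and Tlr6 had no gene as close as the other members did. With the mean log2 CPM of the macrophage markers, the correlation was 0.83 for Tlr1, 0.77 for Tlr9 and 0.75 for Tlr13, and 0.24 for Tlr3. Tlr7 followed conventional dendritic cell markers (0.81) and leukocyte genes (0.79), and Tlr2 and Tlr5 ran opposite to osteoclast markers (-0.84 and -0.76).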

How the data were processed

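RNA-seq libraries of 30 calli were used, 12 lean and 18 DIO. Per the labels and the paper's methods, polyA RNA was made into stranded libraries and sequenced from both ends for 53 cycles, and the authors aligned reads to GRCm38 with HISAT2 2.1.0 and counted them per gene with HTSeq, and the deposited values are raw counts with no normalization. The HTSeq version, strand setting and annotation are not given in the sources used here. Symbols, exon lengths and positions were taken from GENCODE M21.

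Lean days were compared in 1 fit of 12 libraries, DIO days in 1 fit of 18, diets in 6 libraries a day, and changes of the diet difference and the time course in 24, with TMM factors, filterByExpr and two-sided quasi-likelihood tests (edgeR 4.0.16, R 4.3.3). DESeq2 1.42.0, the tool the authors used for pairs, was an alternative, as were RLE and upper-quartile factors, no filter on low counts, all 30 libraries in 1 fit, the replicate number as a block and each library left out in turn. The tests were tested on simulated data. Log2 CPM relative to leukocyte genes used a prior count of 2 and was compared with SciPy 1.17.1. Replicates of a group were different mice.

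The members and lists were chosen with earlier results of these data known. All 10 members are named from d3 to d10 in each diet and from DIO d3 to d21. In the other comparisons only some or none are named, beside counts over all members tested. Of each pathway list up to 3 genes are named, those with the lowest adjusted p, and of each marker list at most its first 2 genes. For each member, genes are named from the 3 most correlated with it. Cxcl2 and Cd14 in single DIO libraries and Col2a1 were named after their values were seen. A planned search of protein sequence was not run, and Tlr4 and Tlr7 have no promoter in the table used.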

Additional observations from a re-analysis of the deposited data

Results flagged for a closer look

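The change of the diet difference in Tlr7 between d7 and d10 was marked because the effect of DIO differed between these days in a test of the difference itself. Its log2 value was 1.63 (edgeR, adjusted p = 0.0215), and it lay between 1.47 and 1.83 with 1 library left out. The call was lost when lean d10 replicate 1, DIO d7 replicate 1 or DIO d10 replicate 1 was the library left out. All 3 DIO libraries lay below all 3 lean libraries on d7 and above them on d10. DESeq2 gave it an adjusted p of 0.00387.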

How the results depend on the processing

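RLE factors changed 1 count of called members, that of the time course, from 2 to 1. Upper-quartile factors gave 1 there, 7 in place of 8 from lean d3 to d10 and 3 in place of 2 from DIO d3 to d21. With 3 mice a group, calls near the threshold depended on single libraries, and Tlr9, at 1 and 2 counts in 2 libraries, is limited by depth. Where a value changed, the cause was not tested. Leaving out lean d10 replicate 1 was added for the tests over all days, the group means and the lists after seeing the data.

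DESeq2 called 9 members from lean d3 to d10, 5 from lean d7 to d10, 1 from DIO d3 to d5, 1 from DIO d5 to d7, 3 from DIO d10 to d14, 4 between diets on d5, and 1 and 2 for the change of the diet difference from d3 and d7 to d10. All 30 libraries in 1 fit gave 5 from lean d7 to d10 0 from DIO d10 to d14 and 3 from DIO d3 to d21. With no filter the counts were 6 from lean d3 to d10, 3 from DIO d3 to d21, 1 from DIO d3 to d5, 1 from DIO d5 to d7, 2 from DIO d10 to d14 and 1 between diets on d5. Macrophage markers in place of leukocyte genes gave 6 members without overlap in lean and 3 in DIO callus, and Ptprc alone gave 4 in lean.

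With 1 library left out, the counts ran from 6 to 8 for lean d3 to d10, 0 to 5 for lean d7 to d10, 5 to 6 for DIO d3 to d10, 0 to 1 for DIO d3 to d5, d7 to d10, d10 to d14 and d14 to d21, 2 to 4 for DIO d3 to d21, 0 to 4 between diets on d5, 0 to 1 and 0 to 2 for the change of the diet difference from d3 and d7 to d10, and 3 to 6 for the members without overlap relative to leukocyte genes in lean callus.

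Replicate numbers name different mice. Samples with the same number did not deviate together in every group (mean correlation 0.149 in lean and -0.02 in DIO libraries), so they share only a number. A replicate block gave 7 members from lean d3 to d10, 3 from DIO d3 to d21, 0 from DIO d10 to d14 and 1 in the time course.

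Under settings that kept all libraries, the values that changed sign were those of Tlr1 from DIO d14 to d21 (-0.067) and Tlr13 from DIO d3 to d21 (-0.030) with upper-quartile factors, Tlr8 between diets on d10 with the block (0.039), Tlr13 relative to Ptprc alone in lean callus (0.029), and Tlr6 (0.13), Tlr8 (0.63) and Tlr13 (0.27) relative to macrophage markers in DIO callus. Of 1030 values of single members under these settings, 988 kept their sign and their side of the threshold. With 1 library left out, 64 of 996 values of members that were not called changed sign.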
